A study of Mus musculus with 6 samples.

Results

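The 10 genes described here encode cytokines, receptors and signalling proteins of the interleukin 6 (IL-6) family. They were chosen by symbol: the cytokines Il6, Il11, Lif and Osm, the receptor chains Il6st, Osmr, Lifr and Il11ra1, the feedback inhibitor Socs3 and the transcription factor Stat3. All 10 were found among the 56940 genes of the files, each with 1 Ensembl identifier, and all 10 were among the 15407 genes with enough counts to be tested. RNA had been sequenced from mouse lens capsules that still carried their epithelial cells after the fiber cell mass of the lens was removed to model cataract surgery. Capsules collected 72 h after the operation gave 3 libraries and capsules collected at 0 h gave 3, and 5 capsules were pooled for each. Both groups were wildtype C57BL/6 mice, per the labels. A tag, RUNX_Cre_N, stands in the description of each library, and no source used here explains it. The ages of the mice are not given in these sources. Surgery on the second eye of each mouse followed 72 h after the first, so the groups may come from the same animals.

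Cytokines of this family signal through a receptor complex that contains gp130, the protein encoded by Il6st. IL-6 and IL-11 bind their own alpha receptors (Il6ra, Il11ra1) before they engage a pair of gp130 molecules, whereas leukemia inhibitory factor (Lif) and oncostatin M (Osm) bring gp130 together with the LIF receptor (Lifr) or the oncostatin M receptor (Osmr). Janus kinases bound to these chains phosphorylate STAT3, which enters the nucleus and switches on target genes, among them Socs3. The SOCS3 protein binds gp130 and the kinases and dampens the signal. In the eye, LIF is known as a factor that retinal glia make after injury.

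Total counts in genes ranged from 8453450 to 8945397 in the 72 h libraries and from 11338820 to 12432688 in the 0 h libraries. Levels below are counts per 1000000 (CPM), scaled to library sizes adjusted for composition. Lens epithelial markers were present in both groups, with the 10 marker genes summing to 3460 to 5550 CPM at 72 h and 22800 to 25100 CPM at 0 h. Most of that sum was the crystallin gene Cryab, with 2205, 4047 and 1962 CPM at 72 h against 19730, 21900 and 20130 CPM at 0 h. Of the 10 markers 8 fell, and the transcription factor genes Pax6 (593, 588 and 749 CPM at 72 h against 661, 707 and 685 CPM at 0 h) and Six3 (133, 162 and 140 CPM at 72 h against 159, 167 and 171 CPM at 0 h) were not called. All 9 lens fiber markers found fell, with sums of 1260 to 2620 CPM at 72 h and 13000 to 14600 CPM at 0 h. Among these, Dnase2b and Birc7 had 0 counts in every 72 h library. They had enough counts to be tested only through their 0 h libraries, so a rise was not open to them. Of 10 retinal photoreceptor markers, 9 fell, with sums of 58.9 to 177 CPM at 72 h and 732 to 1810 CPM at 0 h. The same limit holds for Opn1sw among them, with 1 count over the 72 h libraries. Nrl, which also fell, needed its 0 h libraries to be tested. In the same test, described below, 17.5% of all tested genes fell. The pan-leukocyte gene Ptprc had 25.1, 20.2 and 14.4 CPM at 72 h, against 1.38, 1.35 and 3.08 CPM at 0 h. One library stood apart: 72 h replicate 3 lay away from the other libraries of its group on the second principal component (14.8% of the variance), and the 10 markers of corneal and surface epithelium, mostly keratins, ranged from 39.6 to 4970 CPM at 72 h with their highest sum in that library, against 70.6 to 114 CPM at 0 h. Without this library, 3646 genes were called higher and 3265 lower, against 3230 higher and 2700 lower with all 6 libraries. Nothing says which mice went into which pool, and p-values therefore rest on the variation from pool to pool, which may be partly technical.

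The cytokine genes and Socs3 were higher at 72 h, Osmr rose while the other receptor chains did not, and Stat3 rose 1.51-fold. In the quasi-likelihood test of edgeR, with Benjamini-Hochberg adjusted p-values over every tested gene, 7 of the 10 genes rose (Il6, Il11, Lif, Osm, Osmr, Socs3 and Stat3), Il11ra1 fell, and Il6st and Lifr were not called. In the same test 21.0% of all tested genes were called higher, 17.5% were called lower and 38.5% were called in either direction. The 4 cytokines passed the filter on low counts through their 72 h libraries, so a call in the other direction was not open to them. Of the 6 genes above the filter's level in every library, Osmr, Socs3 and Stat3 rose and Il11ra1 fell, beside 20.8% higher and 18.6% lower among the 12015 genes that met the same condition. Without 72 h replicate 3 the count was 7 higher and 2 lower, with Lifr as the second gene that fell.

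**Figure D1:**
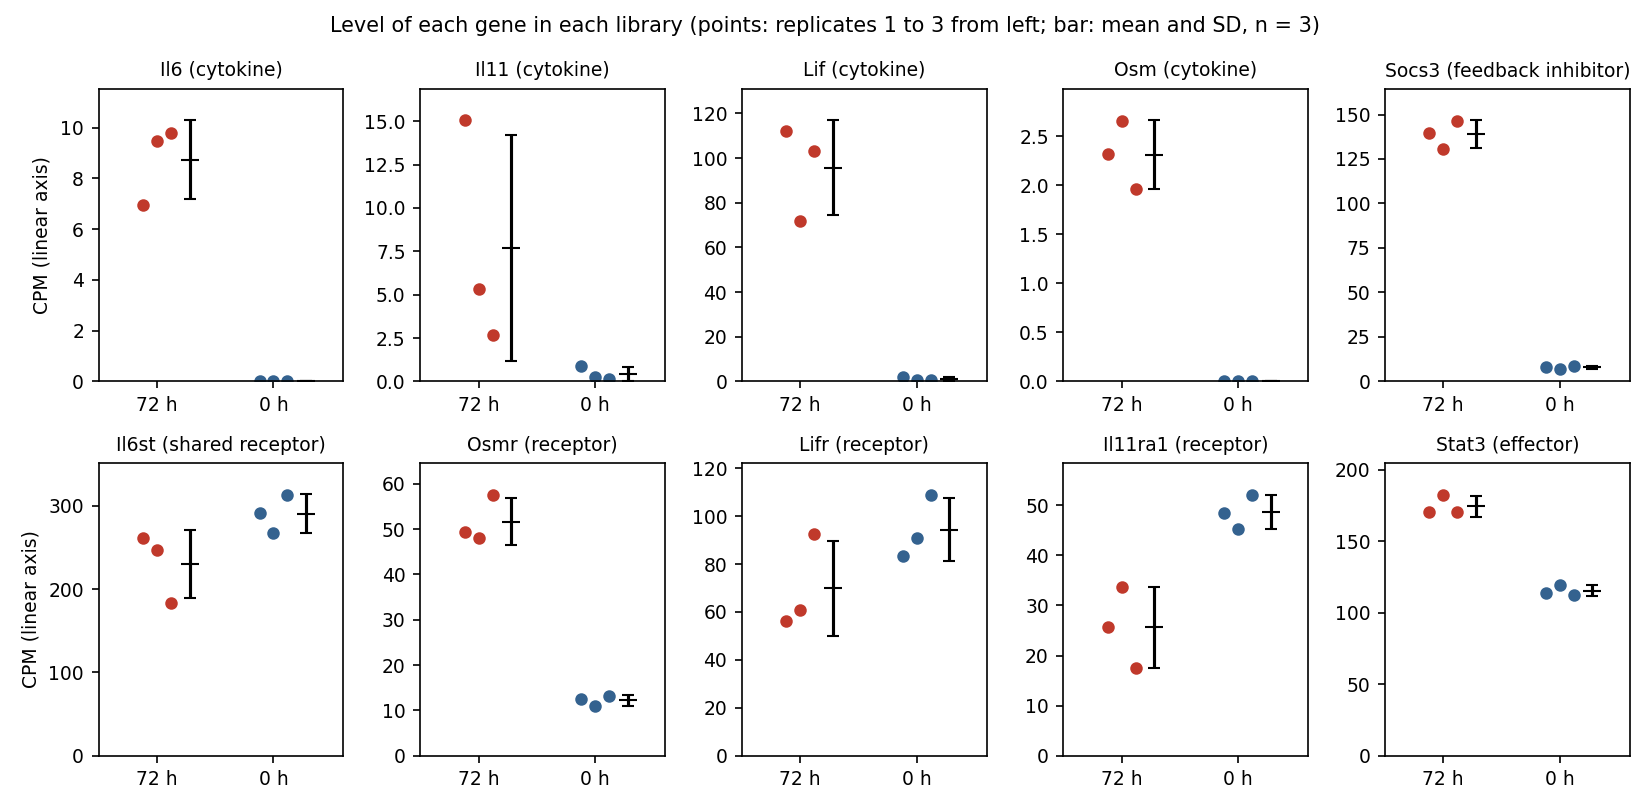
CPM of each of the 10 genes in each library, 72 h in red at the left and 0 h in blue at the right of each panel, on linear axes that start at 0; the black bar is the mean with its SD (n = 3). The cytokines and Socs3 are near 0 or low at 0 h and separate from it at 72 h, and Lifr is the gene whose groups overlap.

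Among the cytokines, Lif was the most abundant at 72 h. Lif, whose protein also keeps mouse embryonic stem cells undifferentiated, had 112, 71.7 and 103 CPM in 72 h replicates 1, 2 and 3, against 2.08, 0.423 and 0.552 CPM at 0 h. The lowest 72 h library lay far above the highest 0 h library. The log2 change was 6.56 ± 0.53 (SE; edgeR adjusted p = 1.4e-04). From pooled counts of 2433 at 72 h and 36 at 0 h, the ratio was 95.7 (95% counting interval 68.9 to 137). Most 0 h counts lay in 0 h replicate 1, and without it the log2 change was 7.56.

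Il6, a cytokine of acute inflammation, was not detected at 0 h. It had 60, 82 and 80 counts in the 72 h libraries (6.95, 9.47 and 9.78 CPM), against 0 counts in each 0 h library. If the 3 libraries at 0 h together are allowed up to 3 counts, the floor used here, Il6 was at least 105-fold higher at 72 h (edgeR adjusted p = 8.7e-05). Osm, which in mouse is made largely by blood cells such as macrophages and neutrophils, had 20, 23 and 16 counts at 72 h (2.32, 2.66 and 1.957 CPM), against 0 counts in each 0 h library. This was at least 27.8-fold higher over the same floor (edgeR adjusted p = 0.0022). These bounds and the counting intervals cover counting error only, because PCR copies are not independent molecules.

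Il11, a cytokine linked to fibrosis and to myofibroblasts, varied the most within a group. It had 15.1, 5.31 and 2.69 CPM in 72 h replicates 1, 2 and 3 (130, 46 and 22 counts), against 0.865, 0.254 and 0.158 CPM at 0 h (10, 3 and 2 counts). The groups did not overlap, but the 72 h libraries differed severalfold among themselves and replicate 1 was the high one. The log2 change was 4.15 ± 0.84 (SE; edgeR adjusted p = 0.0035). It was 3.21 without 72 h replicate 1 (adjusted p = 0.022) and 5.14 without 0 h replicate 1 (adjusted p = 0.0061).

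Markers of myeloid cells, like these cytokines, were higher at 72 h than at 0 h. Of 16 macrophage and monocyte markers, 15 were tested and 11 rose, beside 21.0% of all tested genes called higher. Among those that rose, Cd68, Itgam, Ccr2 and Tyrobp were below the filter's level in every 0 h library, so a fall was not open to them. Cd14, Fcgr1 and Adgre1 were below it in some 0 h libraries. This list summed to 216 to 402 CPM at 72 h, against 35.2 to 51.7 CPM at 0 h. Its most abundant genes were Lyz2, a lysozyme, and the receptor gene Csf1r. Lyz2 had 108, 170 and 61.6 CPM at 72 h against 5.19, 6.60 and 13.3 CPM at 0 h. Csf1r had 31.8, 61.7 and 20.1 CPM at 72 h against 8.30, 8.38 and 7.81 CPM at 0 h. Within the 72 h group both were highest in replicate 2 and lowest in replicate 3. Osm had that order too, but on 20, 23 and 16 counts in replicates 1, 2 and 3, too few to order the libraries. Lif was lowest in replicate 2, Il6 narrowly highest in replicate 3 and Il11 highest in replicate 1. Of 12 neutrophil markers, 5 were tested and 4 rose, with sums of 67.1 to 213 CPM at 72 h and 1.02 to 3.47 CPM at 0 h, beside 21.0% of all tested genes called higher. Of the 4 that rose, Cxcr2 and Mmp8 had 0 counts at 0 h and Mmp9 had 15 over the 0 h libraries, so they passed the filter through the 72 h libraries and a fall was not open to them. The most abundant of these are also made by other cells: Mmp9 had 62.2, 40.6 and 46.4 CPM at 72 h against 0.0865, 0.0847 and 1.03 CPM at 0 h, and Ltf, not called, had 3.59, 3.70 and 135 CPM at 72 h against 0.260, 0 and 0.868 CPM at 0 h. Csf3r, which also rose, had 29.4, 17.6 and 22.7 CPM at 72 h against 1.04, 0.847 and 1.34 CPM at 0 h. Csf3r was below the filter's level in 0 h replicate 2, so it too needed its 72 h libraries to be tested. Among markers not tested, S100a9 had 94 counts over the 72 h libraries and 5 over the 0 h libraries. S100a8 had 47 at 72 h and 1 at 0 h, and Retnlg had 10 at 72 h and 0 at 0 h. The granule genes Mpo, Elane and Camp and the surface marker Ly6g had 0 counts in all 6 libraries. Of 10 antigen presenting cell markers, 6 were tested and 6 rose, beside 21.0% of all tested genes called higher. Of the 6 that rose, Ciita and Itgax were below the filter's level in every 0 h library, so a fall was not open to them. The list summed to 75.9 to 155 CPM at 72 h and 20.1 to 28.5 CPM at 0 h. Of 10 T and NK cell markers none was tested, and they summed to 0.809 to 5.01 CPM at 72 h, against 0.519 to 0.868 CPM at 0 h. Of 10 fibroblast and pericyte markers, 8 were tested, 5 rose and 2 fell, beside 21.0% higher and 17.5% lower over all tested genes. Their sums were 865 to 1630 CPM at 72 h and 431 to 535 CPM at 0 h. Most of the 72 h sum was Col1a1 (mean 612 CPM at 72 h, 4.73 at 0 h) and Col1a2 (463 at 72 h, 48.2 at 0 h). The receptor genes Pdgfra (77.2 at 72 h, 227 at 0 h) and Pdgfrb (95.4 at 72 h, 191 at 0 h) fell. Lum, which rose, was below the filter's level in every 0 h library. Dcn and Cspg4, which also rose, were not above it in every 0 h library. These genes thus passed the filter only with the help of their 72 h libraries. The part of these cells in the cytokine levels was not tested.

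The promoters of 3 cytokine genes are shown because they share a short motif. Windows from 250 bases before to 50 bases after an annotated start were available for 9 of the 10 genes (RefSeq, build GRCm38.p6). They are printed on the strand of the gene. Capitals mark the AP-1 motif TGANTCA, which reads the same on both strands, and in Il6 also the NF-kappaB motif (GGGA, any 2 bases, TTCC), searched on both strands. The Il6 window lies at chr5:30012864-30013163 (plus strand), that of Il11, the second of its 2 windows, at chr7:4778092-4778391 (minus strand), and that of Lif at chr11:4257318-4257617 (plus strand).
Il6: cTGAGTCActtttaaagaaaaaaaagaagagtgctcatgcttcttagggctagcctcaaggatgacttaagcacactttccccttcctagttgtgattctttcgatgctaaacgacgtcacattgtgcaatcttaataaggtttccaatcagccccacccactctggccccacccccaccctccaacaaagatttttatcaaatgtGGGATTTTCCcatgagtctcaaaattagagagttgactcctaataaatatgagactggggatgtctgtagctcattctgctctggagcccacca
Il11: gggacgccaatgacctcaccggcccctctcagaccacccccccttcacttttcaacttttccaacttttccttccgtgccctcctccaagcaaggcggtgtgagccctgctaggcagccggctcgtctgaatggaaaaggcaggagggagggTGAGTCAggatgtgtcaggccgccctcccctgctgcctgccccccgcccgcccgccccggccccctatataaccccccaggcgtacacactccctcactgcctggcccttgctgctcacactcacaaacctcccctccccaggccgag
Lif: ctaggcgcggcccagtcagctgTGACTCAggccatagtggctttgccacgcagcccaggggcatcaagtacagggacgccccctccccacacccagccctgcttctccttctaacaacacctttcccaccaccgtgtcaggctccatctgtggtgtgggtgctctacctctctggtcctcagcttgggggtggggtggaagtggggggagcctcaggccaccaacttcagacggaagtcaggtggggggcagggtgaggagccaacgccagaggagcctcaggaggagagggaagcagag
The AP-1 motif was found in windows of Il6, Il11, Lif and Osmr (4 genes of 9), and 8.97% of the 27025 genes in the table have it in a window. The NF-kappaB motif was found in the Il6 window alone among the 9, and 1.63% of all genes have it. In Il6 this match spans bases 44 to 35 before the start. These motifs were chosen after the letters had been seen, and a match of letters is a description, not a binding site.

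Socs3 changed with the smallest p of the 10 genes, in 21st place among all tested genes when ranked by p. It had 140, 131 and 146 CPM in the 72 h libraries, against 8.13, 6.94 and 8.68 CPM at 0 h. The libraries of each group lay close together and far from those of the other group. The log2 change was 4.13 ± 0.14 (SE), a fold of 17.5 (edgeR adjusted p = 5.2e-08). Leaving out any 1 library gave log2 changes of 4.031 to 4.199. Stat3 had 170.4, 182.6 and 170.1 CPM at 72 h, against 114.0, 119.5 and 112.2 CPM at 0 h. The groups did not overlap, and the log2 change was 0.60 ± 0.09 (SE), a fold of 1.51 (edgeR adjusted p = 7.4e-04). STAT3 is activated by phosphorylation, which RNA counts do not measure.

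The Socs3 promoter window is shown because it alone, among the 9 genes with a window, held the STAT motif TTCNNNGAA, which reads the same on both strands and is in capitals. It lies at chr11:117969317-117969616 of GRCm38.p6 (RefSeq), minus strand.
Socs3: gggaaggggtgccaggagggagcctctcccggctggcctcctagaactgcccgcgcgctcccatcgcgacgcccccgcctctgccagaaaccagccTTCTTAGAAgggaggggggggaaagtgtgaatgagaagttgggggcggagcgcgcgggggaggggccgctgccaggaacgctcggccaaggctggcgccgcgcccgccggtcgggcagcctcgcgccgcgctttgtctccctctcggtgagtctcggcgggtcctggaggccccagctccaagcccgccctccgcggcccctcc
The match spans bases 154 to 146 before the annotated start. Over all genes in the table, 9.55% have this motif in a window. No match in the other 8 genes says only that these letters are not in those windows.

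**Figure D2:**
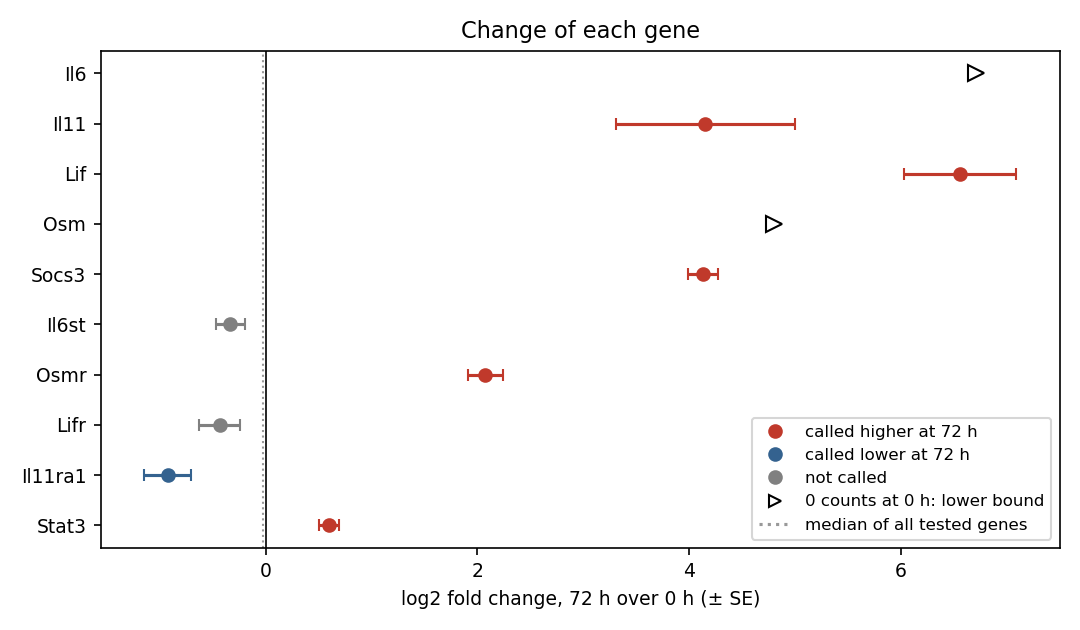
Log2 fold change of each gene, 72 h over 0 h, with a standard error derived from the edgeR F statistic. Open triangles are lower bounds for Il6 and Osm, which had 0 counts at 0 h. The bounds stand at 6.71 for Il6 and 4.80 for Osm, Socs3 at 4.13 has a short error bar, and Il11ra1 at −0.93 is the gene called lower.

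The receptor chains moved apart. Osmr, the chain that gives oncostatin M its own receptor, had 49.3, 47.9 and 57.6 CPM at 72 h, against 12.5, 10.9 and 13.3 CPM at 0 h. The groups were well separated, with a log2 change of 2.08 ± 0.17 (SE), a fold of 4.21 (edgeR adjusted p = 1.1e-05). Il6st, the chain that all these cytokines share, had 261, 247 and 184 CPM at 72 h, against 292, 267 and 313 CPM at 0 h. Every 72 h value lay below every 0 h value, although narrowly for replicates 1 and 2, and the gene was not called (log2 change −0.33 ± 0.14, edgeR adjusted p = 0.082). Of the 10 genes, 9 had groups that did not overlap, 7 higher and 2 lower at 72 h, beside 53.5% of all tested genes (26.5% higher and 26.9% lower). Il6st was called lower under 3 alternatives, upper quartile normalization (adjusted p = 0.042), no filter (0.027) and limma voom (0.045). It was not called when any 1 library was left out, with adjusted p-values of 0.051 to 0.26, and without 72 h replicate 3, its lowest library, the log2 change was −0.18 (adjusted p = 0.14).

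Lifr, which binds LIF and pairs with gp130, had 56.4, 60.7 and 92.7 CPM in 72 h replicates 1, 2 and 3, against 83.5, 90.8 and 109 CPM at 0 h. The groups overlapped because 72 h replicate 3 lay within the range of the 0 h libraries. With all libraries the gene was not called (log2 change −0.43 ± 0.19, edgeR adjusted p = 0.11). Without 72 h replicate 3 it fell, with a log2 change of −0.68 (adjusted p = 8.5e-04). Whether the surface epithelial keratins of that library bear on its Lifr level was not tested. Because the samples are bulk tissue, fewer cells that express a receptor and less RNA per cell cannot be told apart.

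Il11ra1, the alpha receptor of IL-11, had 25.7, 33.6 and 17.5 CPM at 72 h, against 48.5, 45.3 and 52.1 CPM at 0 h. The groups did not overlap, and the log2 change was −0.93 ± 0.22 (SE; edgeR adjusted p = 0.0080). Without 72 h replicate 3, the lowest library, it was −0.70 (adjusted p = 0.0030). Il11ra1 has near-identical copies in the reference annotation. Of the 50-base words of its longest transcript, 60.0% also occur in Il11ra2 or Gm13305. Il11ra2 had 0 counts in all 6 libraries and Gm13305 had 1 count in 72 h replicate 1 and 1 in 0 h replicate 2. Reads that fit more than 1 copy may have been dropped, so the level of Il11ra1 is uncertain. Lens epithelial, lens fiber and photoreceptor markers were also lower at 72 h, and their part in the Il11ra1 level was not tested. For the other 9 genes this share was 3.42% for Il11, 0.384% for Stat3 and 0 for the rest.

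Ratios of 2 receptor genes within a library do not depend on how libraries are scaled. The log2 ratio of Osmr to Lifr counts was −0.19, −0.34 and −0.69 in the 72 h libraries, against −2.73, −3.06 and −3.04 in the 0 h libraries. It was thus higher in every 72 h library, by 2.54 on average. The log2 ratio of Osmr to Il6st was −2.40, −2.36 and −1.68 at 72 h, against −4.54, −4.61 and −4.56 at 0 h, a mean difference of 2.42. The log2 ratio of Lifr to Il6st was −2.21, −2.03 and −0.99 at 72 h, against −1.81, −1.56 and −1.52 at 0 h. Here 72 h replicates 1 and 2 lay below the 0 h libraries and replicate 3 above them, so no common direction was seen.

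**Figure D3:**
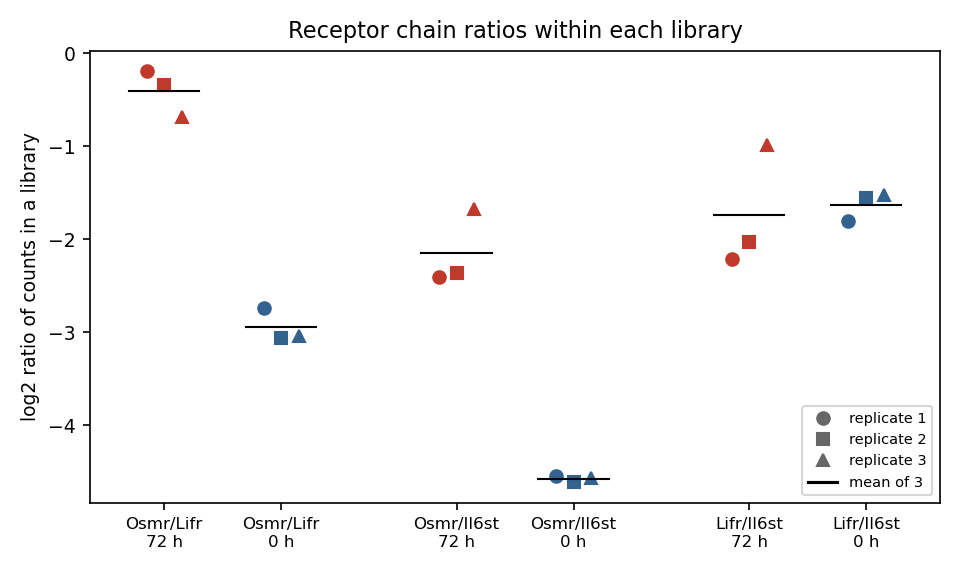
Log2 ratio of the counts of 2 receptor genes in each library, 72 h in red left of 0 h in blue for each ratio; symbols are replicates and black lines are means of 3 libraries. Osmr is higher relative to Lifr and to Il6st in each 72 h library, and the ratio of Lifr to Il6st is split by 72 h replicate 3.

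Genes were compared with each other on CPM per kilobase of annotated exon (CPM/kb). At 72 h Socs3 was at the top with 48.05 ± 2.71 CPM/kb (SD, n = 3) and did not overlap the next gene. Lif (22.0 ± 4.88 CPM/kb), Il6st (20.8 ± 3.69) and Stat3 (18.3 ± 0.751) followed, and their ranges overlapped from each gene to the next. Lifr, Il11ra1, Osmr, Il11 and Il6, from 6.49 down to 3.60 CPM/kb, also overlapped from each to the next. Osm was lowest at 1.02 ± 0.154 CPM/kb. At 0 h the order was Il6st (26.2 ± 2.11 CPM/kb), Stat3 (12.1 ± 0.398), Il11ra1 (10.9 ± 0.766), Lifr (8.76 ± 1.22), Socs3 (2.74 ± 0.307) and Osmr (1.01 ± 0.0986), with no overlap between neighbours. Lif (0.234 ± 0.211 CPM/kb) and Il11 (0.205 ± 0.184) lay below them and overlapped, and Il6 and Osm had 0 counts.

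The cytokines thus took different places among themselves. Per length, Lif made up 69.9%, 68.4% and 79.3% of the summed level of the 4 cytokines in 72 h replicates 1, 2 and 3. Il6 made up 7.75%, 16.2% and 13.5%, and Il11 made up 19.6%, 10.6% and 4.33%. Among Il6st, Osmr and Lifr, the share of Osmr per length was 12.4%, 12.4% and 15.9% at 72 h, against 2.95%, 2.70% and 2.77% at 0 h. The share of Il6st was 71.6%, 69.9% and 55.4% at 72 h, against 75.0%, 72.05% and 71.6% at 0 h. Each of these shares depends on the length taken for a gene. With the length of the longest transcript in place of all exons, Osmr stood at 9.40 instead of 4.26 CPM/kb at 72 h and at 2.23 instead of 1.01 CPM/kb at 0 h. With those lengths the order at 72 h was Socs3, Stat3, Il6st, Lif, Il11ra1, Osmr, Lifr, Il11, Il6 and Osm, and the order at 0 h did not change.

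**Figure D4:**
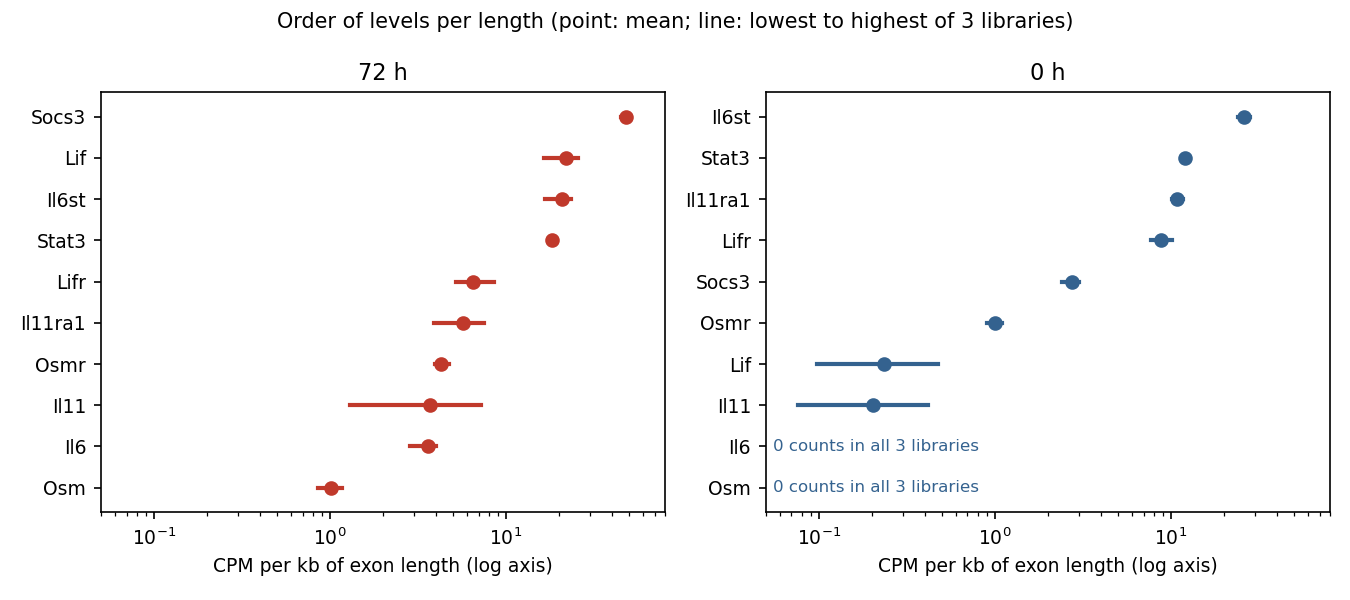
Level of each gene in CPM per kilobase of exon on a log axis, ordered from high to low within 72 h (left) and 0 h (right); points are means and lines run from the lowest to the highest of 3 libraries. Socs3 is at the top at 72 h and below Lifr at 0 h, and Il6 and Osm have 0 counts at 0 h.

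Genes with the pattern most like those of Socs3 and Osmr were sought among 9307 other tested genes with a symbol and a mean of at least 10 CPM. The measure was the root mean square difference of log2 CPM over the 6 libraries, each gene centred on its own mean. Nearest to Socs3 were Pak1 (difference 0.13), Col16a1 (0.15), Crispld2 (0.15), Arl4c (0.15) and Cnn2 (0.16). Nearest to Osmr were Hbegf (0.09), Svil (0.10), Fosl2 (0.10), Cpne8 (0.11) and Ptbp3 (0.11). Pak1, a protein kinase of the cytoskeleton, had 56.5 CPM at 72 h and 3.06 CPM at 0 h on average, and Hbegf, a growth factor that binds the EGF receptor, had 320 CPM at 72 h and 73.2 CPM at 0 h. Since the 2 groups differ for these genes, the measure mostly picks genes with a change of the same size.

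Other genes of the family changed as well. Of 12 further gp130 family cytokines and receptors, 4 were tested, and 2 rose and 2 fell, beside 21.0% higher and 17.5% lower over all tested genes. The number that fell was 3 with no filter, with DESeq2, or without 72 h replicate 2, 72 h replicate 3 or 0 h replicate 3. Ctf1, outside the naming rule, was named after its values were seen. Clcf1, a cytokine of the ciliary neurotrophic factor (CNTF) branch, had 62.4, 41.2 and 49.8 CPM at 72 h, against 4.07, 4.23 and 2.21 CPM at 0 h (log2 change 3.87 ± 0.28, edgeR adjusted p = 6.4e-06). The receptor of that branch, Cntfr, had 8.45, 8.43 and 4.77 CPM at 72 h, against 43.3, 49.9 and 35.7 CPM at 0 h. It fell by 2.57 ± 0.26 on the log2 scale (edgeR adjusted p = 4.3e-05).

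Il6ra, the alpha receptor of IL-6 that leukocytes and hepatocytes are known to carry, had 16.4, 11.4 and 10.03 CPM at 72 h, against 0.865, 0.847 and 0.394 CPM at 0 h. It rose by 4.15 ± 0.46 on the log2 scale (edgeR adjusted p = 8.3e-05). Macrophage and monocyte markers were also higher at 72 h, with the sums given above, and their part in the Il6ra level was not tested. Ctf1, the cytokine cardiotrophin 1, fell to 3.126, 1.964 and 0.6114 CPM at 72 h, against 8.13, 10.2 and 8.91 CPM at 0 h (log2 change −2.24 ± 0.53, edgeR adjusted p = 0.0078). Of the 4 tested genes only Clcf1 and Cntfr were above the filter's level in every library.

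Genes of the JAK and STAT list, which also holds the phosphatase genes Ptpn6 and Ptpn11, rose more often than they fell. Ptpn6 was among those that rose, and Ptpn11 was not called. Of 11 JAK and STAT pathway genes, 10 were tested, 7 rose, Stat5b fell and 2 were not called, and the median log2 change was 1.22, against −0.02 over all tested genes. All 10 were above the filter's level in every library, a condition under which 20.8% of all genes rose and 18.6% fell. Like the other lists, this one was chosen with earlier results of these data known, so its shares are a description. Jak1, the kinase most needed for gp130 signalling, had 182, 182 and 169 CPM at 72 h, against 122, 121 and 123 CPM at 0 h (log2 change 0.54 ± 0.09, edgeR adjusted p = 0.0012). Jak2, another kinase of gp130, had 71.4, 81.3 and 99.2 CPM at 72 h, against 33.0, 35.6 and 30.1 CPM at 0 h (log2 change 1.35 ± 0.15, edgeR adjusted p = 9.8e-05). Stat6, the factor of IL-4 and IL-13 signalling, rose by 2.50 ± 0.19 on the log2 scale (edgeR adjusted p = 8.8e-06). Stat5b, a factor of growth hormone and cytokine signalling, fell by 0.82 ± 0.15 (edgeR adjusted p = 0.0020).

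The list of SOCS and PIAS genes, which leaves out Socs3, held both higher and lower genes. Of 11 SOCS and PIAS genes, 5 rose (45.5%), 2 fell (18.2%) and 4 were not called, beside 21.0% higher and 17.5% lower over all tested genes. The median log2 change was 0.36, against −0.02 over all tested genes. Socs1, Socs2 and Cish were below the filter's level in some libraries, and among the other 8 genes 2 rose and 2 fell, with a median of 0.04. These shares, 25.0% each, were near those of all genes above the filter's level in every library (20.8% higher and 18.6% lower). Socs5, an inhibitor of cytokine and EGF receptor signalling, had 80.2, 83.1 and 66.8 CPM at 72 h, against 37.8, 35.5 and 34.0 CPM at 0 h (log2 change 1.10 ± 0.14, edgeR adjusted p = 1.6e-04). Pias1, a SUMO ligase that restrains STAT signalling, had 36.6, 34.3 and 27.3 CPM at 72 h, against 57.2, 65.7 and 61.5 CPM at 0 h. It fell by 0.91 ± 0.15 on the log2 scale (edgeR adjusted p = 0.0011). Without 0 h replicate 2, 3 genes rose, and without 72 h replicate 1 or any 1 of the 0 h libraries, 1 gene fell.

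Genes known as STAT3 targets were mostly higher. Of 30 such genes, 25 were tested, 21 rose and 2 fell, with a median log2 change of 2.86. Among the 20 above the filter's level in every library, 16 rose and 2 fell, with a median of 2.19, beside 20.8% higher and a median of −0.01 over all genes that met the same condition. This list too was chosen with earlier results of these data known, so its shares are a description. Many of these genes also answer to other signals, such as NF-kappaB or growth factors. Junb, a component of AP-1, had 121, 122 and 145 CPM at 72 h, against 7.01, 6.10 and 5.76 CPM at 0 h (log2 change 4.36 ± 0.15, edgeR adjusted p = 6.4e-08). Hif1a, the oxygen-regulated transcription factor, had 384, 386 and 207 CPM at 72 h, against 1045, 1168 and 1086 CPM at 0 h, and fell by 1.75 ± 0.23 on the log2 scale (edgeR adjusted p = 7.4e-04).

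The targets with the largest fitted changes, named after their values were seen, were Serpina3n, Bcl3 and Timp1. Serpina3n, a secreted protease inhibitor of the acute phase, had 3363, 3305 and 1890 CPM at 72 h, against 48.8, 40.1 and 26.7 CPM at 0 h. Bcl3, a cofactor of NF-kappaB, had 33.8, 28.9 and 41.6 CPM at 72 h, against 0.432, 0.593 and 0.473 CPM at 0 h. Timp1, a metalloproteinase inhibitor, had 111, 89.3 and 51.6 CPM at 72 h, against 1.124, 1.778 and 0.9465 CPM at 0 h. The groups of these 3 genes did not overlap. They were picked for the size of their change, and Bcl3 passed the filter on low counts only through its 72 h libraries, so their values are a description. Groups did not overlap for 21 higher and 2 lower of the 25 tested targets, beside 26.5% and 26.9% of all tested genes. One target fell in place of 2 without 72 h replicate 1 or 2 or any 1 of the 0 h libraries.

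**Figure D5:**
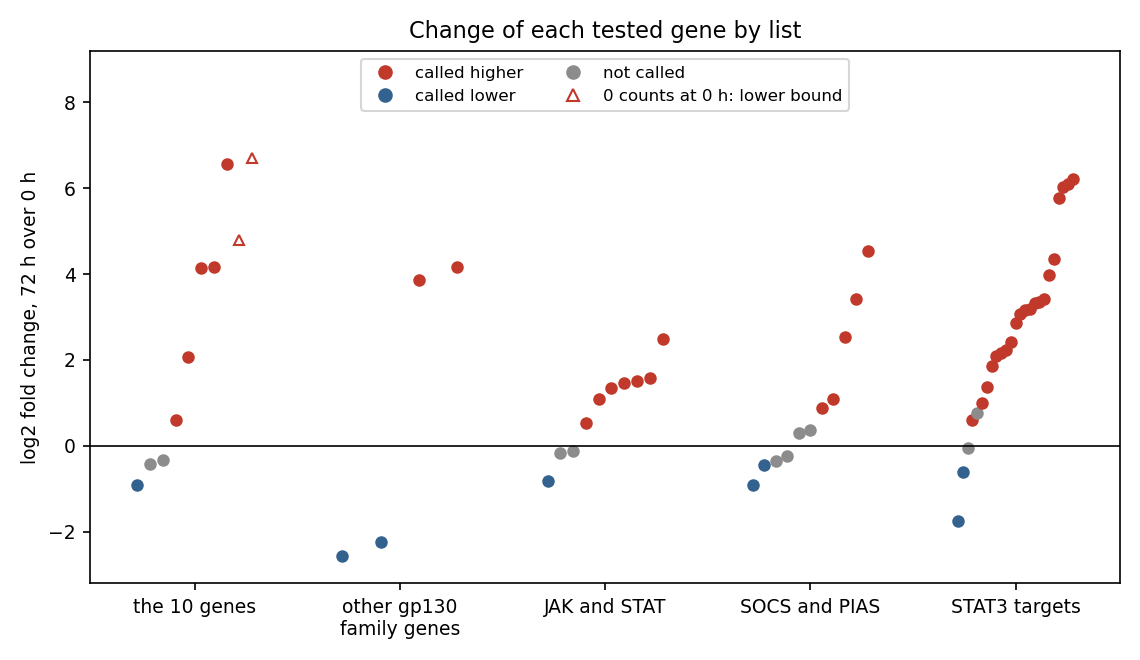
Log2 fold change of each tested gene, 72 h over 0 h, in 5 lists; within a list genes are ordered by their fitted change, red is called higher, blue called lower and grey not called, and open triangles are lower bounds for genes with 0 counts at 0 h. JAK and STAT genes lie between −0.82 and 2.50, and most STAT3 targets lie above 0.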

How the data were processed

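Total RNA was made into libraries with a stranded low-input kit (Takara SMARTer Pico v2), per the labels. The values are raw counts of reads per Ensembl gene, as deposited, and were not normalized by the authors. The submitters' processing notes list HISAT2, HTSeq, edgeR and GRCm39. The versions, annotation and strand setting are not given there or in the labels. Lines of reads not assigned to a gene for any reason, 41.9% to 51.7% of the reads of each file, were left out.

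Symbols came from GENCODE M21, which matched 51947 of 56940 identifiers. It also gave exon lengths, shared 50-base words and overlaps. The exons of Stat3 share 72 bases with Stat5a on the other strand and those of Il11ra1 share 8 with Ccl27a. M21 is on another build, so its coordinates were not used.

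Genes were kept by filterByExpr (minimum count 10, total 15), normalised by TMM and tested for time with edgeR 4.0.16 (quasi-likelihood, robust, two-sided, R 4.3.3), with adjusted p under 0.05 as the threshold. Fitted log2 changes carry a prior count of 0.125. Each standard error (SE) of a log2 change was derived as its absolute value divided by the square root of the edgeR F statistic. The fit was tested on simulated data. Alternatives were other scalings, filters, DESeq2 1.42.0, limma 3.58.1 voom, a replicate block and leaving out each library. The named genes were the 10, the smallest p in each direction of each list (the 2 smallest where all moved 1 way), and Il6ra, Il11ra2, Jak1 and Jak2. Some genes of the pathway lists are not reported here and were left out of the lists' counts. The genes and lists were chosen with earlier results of these data known.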

Additional observations from a re-analysis of the deposited data

How the results depend on the processing

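Over the alternatives that could be run, Il6, Il11, Lif, Osm, Osmr, Socs3 and Stat3 stayed called higher and Il11ra1 lower, except that Il11 and Osm did not pass the stricter filter, which left 5 of the 10 genes called higher. The number called lower was 1 in the reported fit, 3 with upper quartile normalization or no filter, 2 with library size alone, limma voom or the replicate block, and 1 to 2 when any 1 library was left out. The added genes were Il6st, Lifr or both. Among SOCS and PIAS genes, 3 to 5 rose and 1 to 2 fell when 1 library was left out, 1 fell with RLE size factors, DESeq2 or the replicate block, and 3 fell with upper quartile normalization. Among STAT3 targets, 1 to 2 fell when 1 library was left out, and 1 fell with no filter, DESeq2 or the replicate block. The causes of these shifts were not tested.

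The replicate numbers are shared by both groups, but same-numbered libraries did not deviate together (correlation of deviations across genes −0.04, 0.06 and −0.01 for replicates 1, 2 and 3), so the replicate block rests on numbers alone. It gave 2921 higher and 2507 lower genes over all genes, against 3230 and 2700 without it, and Lifr was called lower with it (log2 change −0.46, adjusted p = 0.024). Depth limits Osm most, at 16 to 23 counts in a 72 h library.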

Other observations

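Further gp130 family genes had too few counts to be tested. Il31ra, a receptor chain that pairs with OSMR, had 4 counts over the 72 h libraries and 71 over the 0 h libraries. Il27 had 5 counts at 72 h and 16 at 0 h, Ebi3 had 11 at 72 h and 11 at 0 h, and Cntf had 0 at 72 h and 2 at 0 h. Ctf2 and Il31 had 0 counts in all 6 libraries. Among acute phase genes, Fgg and Fgb, which encode fibrinogen chains of liver, had 0 counts in all 6 libraries, whereas Saa3 had 5 counts at 72 h and 0 at 0 h.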
